A study of Mus musculus with 6 samples.

Results

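The ADAMTS proteases (a disintegrin and metalloproteinase with thrombospondin motifs) are secreted zinc enzymes that cut proteins of the extracellular matrix. The genes described here are Adamts1, Adamts2, Adamts4, Adamts5, Adamts7, Adamts9, Adamts10, Adamts12 and Adamts15, taken by name, and all 9 were found among the 38293 genes of the count table. Their RNA was measured by RNA-seq in heart tissue of 3 WT and 3 Zeb2 cKO mice, 1 library per mouse, 14 days after permanent occlusion of the left anterior descending artery (myocardial infarction, MI). All mice were C57BL/6J (backcrossed) and, according to the methods, males of 8 to 10 weeks. The methods describe the mice labelled WT as Zeb2 fl/fl, with floxed Zeb2 alleles and no Cre named. The Zeb2 cKO mice carry the same alleles and a Cre recombinase under the cardiomyocyte promoter of Myh6, so the deletion is aimed at cardiomyocytes while the RNA comes from all cells of the tissue. The labels place the tissue in the border region of the infarct, whereas the methods name the remote zone. The comparison asks how the infarcted heart differs when cardiomyocytes lack ZEB2, a zinc finger transcription factor.

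The family is made as inactive precursors, whose propeptide is removed by furin-like convertases, and it acts outside the cell. Adamts1, Adamts4, Adamts5, Adamts9 and Adamts15 cleave large hyaluronan-binding proteoglycans such as versican and aggrecan, an activity known from the remodelling of heart valves and from cartilage. Adamts2 removes the amino-terminal propeptide of fibrillar procollagens before fibrils form. Adamts7 and Adamts12 cleave cartilage oligomeric matrix protein (Comp), and Adamts10 binds fibrillin microfibrils. TIMP3 inhibits the aggrecan-cleaving members, and the receptor LRP1 takes ADAMTS4 and ADAMTS5 up from the matrix.

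What the members share is the catalytic site. In each of the 9, the coding sequence held exactly 1 match to the metzincin zinc-binding pattern, a stretch of 12 codons in which 3 histidine codons bind the catalytic zinc. The stretch is shown because it codes for the active site of the enzymes and shows their subgroups. It was read from the transcript of each gene with the longest open reading frame (Gencode M21, build GRCm38), 5′ to 3′, and the capitals mark the 3 zinc-binding histidine codons.
Adamts1: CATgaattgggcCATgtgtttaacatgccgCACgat
Adamts4: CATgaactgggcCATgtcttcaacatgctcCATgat
Adamts9: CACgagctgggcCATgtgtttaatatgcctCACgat
Adamts15: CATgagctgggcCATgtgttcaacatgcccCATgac
Adamts5: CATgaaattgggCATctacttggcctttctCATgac
Adamts2: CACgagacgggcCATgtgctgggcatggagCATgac
Adamts7: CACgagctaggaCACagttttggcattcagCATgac
Adamts12: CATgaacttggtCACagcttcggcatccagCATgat
Adamts10: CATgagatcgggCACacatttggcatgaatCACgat

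Of the 36 bases, 14 were the same in all 9 genes. Adamts1, Adamts4, Adamts9 and Adamts15 matched each other at 28 to 32 bases over their 6 pairs, and matched the other 5 genes at 20 to 26 bases over 20 pairs. Adamts7 and Adamts12, which share Comp as a substrate, matched at 28 bases. Adamts5, which also cleaves versican and aggrecan, thus lies outside the first subgroup in this stretch.

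The 9 genes lie on 7 chromosomes of GRCm38. Adamts1 (chr16:85793827-85803113) and Adamts5 (chr16:85856173-85901828) are neighbours on the minus strand, 53.1 kb apart. Adamts2 lies at chr11:50602084-50807573, Adamts4 at chr1:171250421-171260637, Adamts10 at chr17:33524204-33553782 and Adamts12 at chr15:11064790-11349231, all on the plus strand. Adamts7 (chr9:90163069-90208071, plus strand) and Adamts15 (chr9:30899155-30922452, minus strand) share a chromosome, and Adamts9 lies at chr6:92772699-92943492 on the minus strand. A promoter window of 300 bases around the RefSeq start (GRCm38.p6) was at hand for 4 members, Adamts1, Adamts2, Adamts9 and Adamts12. ZEB2 is known to bind the core CACCT, which was searched on both strands and occurred 1 time in the window of Adamts1, 3 times in that of Adamts9 and in neither of the others, beside 51.9% of all 32851 windows with a match. The longer E-box form CACCTG, which contains the core, occurred in 0 of the 4 windows and in 20.2% of all windows.

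The libraries held between 37288174 and 51136331 counts, of which mitochondrially encoded genes took 60.5% to 67.0%, and 8128 to 15656 counts fell on the 9 members. Levels are given as CPM, counts per 1000000 counts of the TMM-normalized library, and 14746 genes passed the filter on low counts, all 9 members among them. WT replicate 2 stood apart. Of all tested genes, 35.2% were higher in it than in each of the other 5 libraries and 34.6% were lower than in each of them. The summed CPM of 10 fibroblast markers was 3592 in WT replicate 2 and 1149 to 1566 in the other 5 libraries. For 10 macrophage markers it was 848 against 216 to 299, for 10 endothelial markers 470 against 597 to 703, for 10 mural cell markers 708 against 951 to 1071, and for 10 cardiomyocyte markers 34669 against 55680 to 67970. All markers of these 5 lists were detected in every library. In bulk tissue, fewer cells of a type and less RNA per cell cannot be told apart. Zeb2 itself was at 61.3, 116 and 71.9 CPM in WT replicates 1, 2 and 3, the order in which values of a group are given throughout, against 59.6, 72.6 and 66.5 CPM in Zeb2 cKO hearts, so its groups overlapped (log2 fold change -0.33, standard error 0.25, adjusted p = 0.957, and -0.0058 without WT replicate 2), and a lower level in Zeb2 cKO was not detectable in the whole tissue.

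No protease of the 9 passed the test between the genotypes. With edgeR's quasi-likelihood test, 0 of 9 members had an adjusted p under 0.05 in either direction (lowest adjusted p = 0.957), against 0% of all tested genes lower and 0% higher. At an unadjusted p under 0.05 there were also 0 of 9 members, where the share of all tested genes was 0.861% lower and 1.04% higher in Zeb2 cKO. DESeq2 likewise called 0 of 9. The libraries of the genotypes overlapped in each of the 9 members, whereas 2.97% of all tested genes had no overlap and lay lower in Zeb2 cKO, and 3.39% lay higher. Log2 fold changes (Zeb2 cKO over WT) were below 0 in 6 members and above 0 in 3, with a median of -0.14 beside -0.0069 over all tested genes. Without WT replicate 2, 5 of the 9 members changed sign and the median was -0.0078 beside 0.0025 over all tested genes. In that comparison an adjusted p under 0.05 was again reached by 0 of 9 members (0% of tested genes in each direction) and an unadjusted p under 0.05 by 0 of 9, beside 1.08% of tested genes lower and 1.55% higher.

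The overlap of the groups rested on single libraries in 4 members. Without WT replicate 1, only Adamts7 had no overlap, being higher in Zeb2 cKO, beside 12.1% of tested genes lower and 10.9% higher without overlap. In that setting Adamts7 (log2 fold change 1.10, unadjusted p = 0.0201) and Adamts2 (-1.46, unadjusted p = 0.0407) had an unadjusted p under 0.05 in edgeR's test, each with an adjusted p = 0.596, beside 5.49% of tested genes lower and 2.04% higher. Without Zeb2 cKO replicate 3, Adamts2, Adamts4 and Adamts10 were lower and Adamts7 was higher without overlap, beside 10.8% and 11.8% of tested genes. There, of the 9 members, only Adamts4 had an unadjusted p under 0.05 (log2 fold change -1.25, unadjusted p = 0.02, adjusted p = 0.915), beside 1.39% of tested genes lower and 1.1% higher. Without Zeb2 cKO replicate 1 instead, the log2 fold change of Adamts4 was -0.14.

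**Figure D1:**
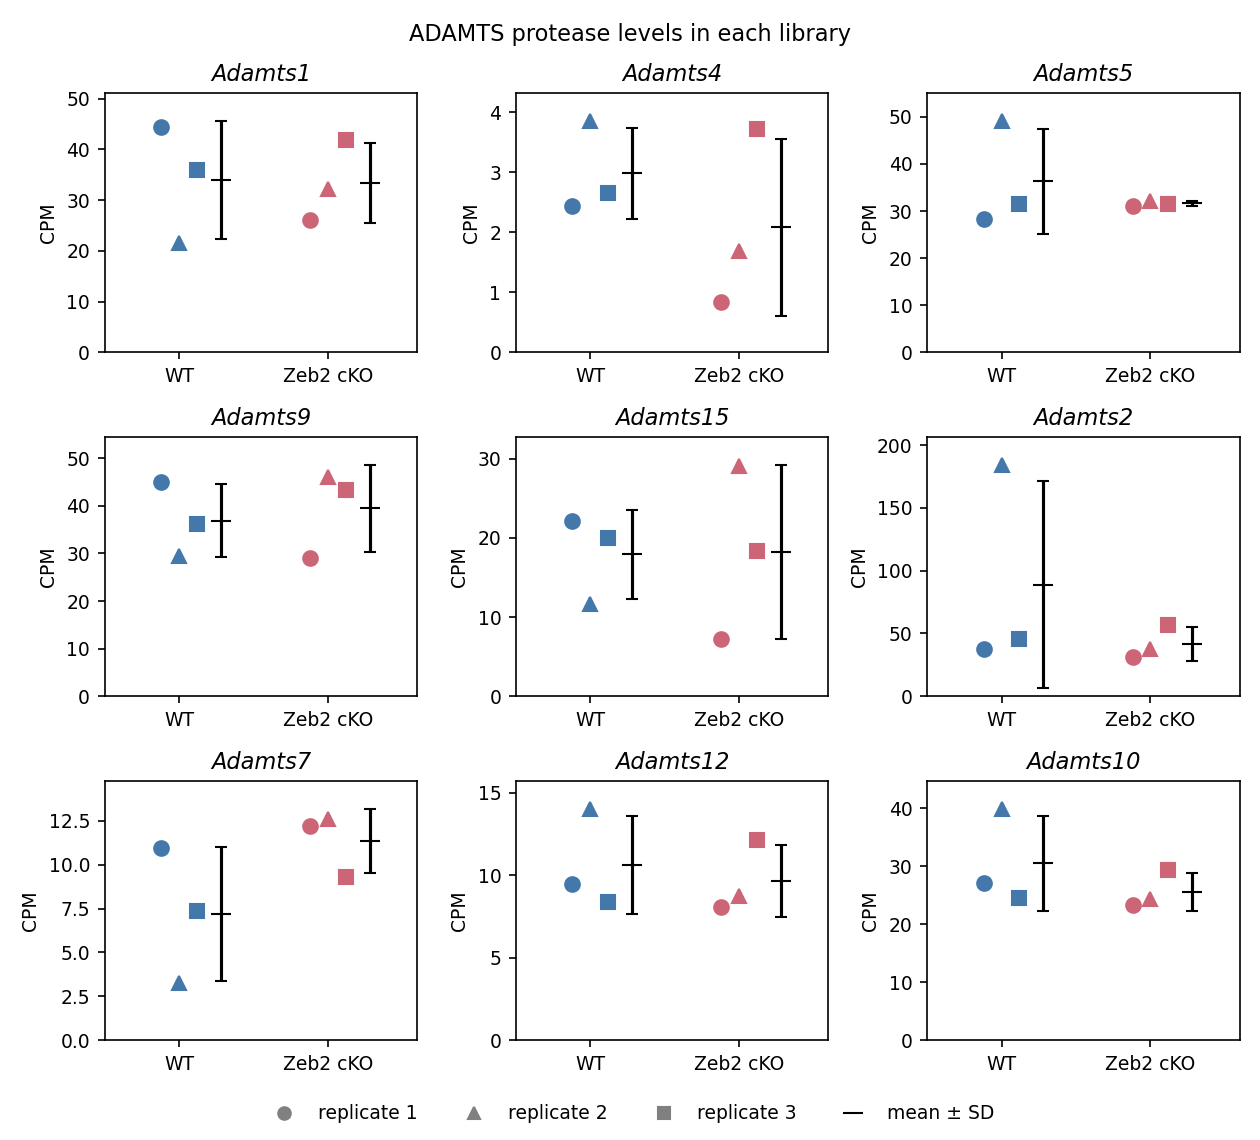
CPM of each protease (vertical axes, starting at 0) in the 3 WT and 3 Zeb2 cKO libraries, with the symbol giving the replicate and the black bar the mean ± SD of 3 libraries. The groups overlap in every panel, and WT replicate 2 is the highest library for Adamts2, Adamts4, Adamts5, Adamts10 and Adamts12 and the lowest for Adamts1 and Adamts7.

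Adamts2, the procollagen N-proteinase, varied most between libraries. Its level was 37.4, 184 and 45.2 CPM in WT (88.9 ± 82.5, SD, n = 3) against 31.1, 37.3 and 56.6 CPM in Zeb2 cKO, whose mean was 41.7 ± 13.3 (SD, n = 3). WT replicate 2 alone stood high, 4.93-fold above the median of the other 5 libraries, which mixed the genotypes. The log2 fold change was -1.09 (standard error 0.62, 95% interval -2.57 to 0.38, adjusted p = 0.957 from edgeR), and 0.018 (standard error 0.24) without WT replicate 2. Its substrates were high in the same library: Col3a1 was at 4872 CPM there and at 615 to 903 CPM in the other 5, and Col1a1 at 725 CPM against 85.4 to 161 CPM. Set against its substrate within each library, Adamts2 was at 51.8, 37.8 and 55.0 CPM per 1000 CPM of Col3a1 in WT against 50.5, 47.9 and 62.7 in Zeb2 cKO hearts. The protease thus was lowest relative to Col3a1 in the library where its own level was highest. Per 1000 CPM of Col1a1 it was at 307, 254 and 351 in WT against 364, 353 and 352 in Zeb2 cKO hearts, which did not overlap. The exact permutation test gave a two-sided p = 0.1, the smallest that 3 against 3 allows. The adjusted p was 0.75 over the 10 ratios and levels so tested, all chosen after the data were seen.

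Among the enzymes that cleave versican and aggrecan, Adamts1 and Adamts9 had the fold changes nearest to 0 beside Adamts15. Adamts1, which acts on versican in the developing heart, was at 44.4, 21.5 and 35.96 CPM in WT against 26.1, 32.3 and 41.8 CPM in Zeb2 cKO hearts. WT replicate 2 was the lowest and WT replicate 1 the highest library, so the whole range of Zeb2 cKO lay inside that of WT (log2 fold change -0.023, standard error 0.29, adjusted p = 0.996). Adamts9 was at 44.9, 29.5 and 36.2 CPM in WT against 29.1, 46.0 and 43.2 CPM in Zeb2 cKO hearts (0.097, standard error 0.23, adjusted p = 0.963). Its lowest libraries, WT replicate 2 and Zeb2 cKO replicate 1, came from different genotypes.

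Adamts5, the main aggrecanase of mouse cartilage, was the steadiest member outside WT replicate 2. It was at 28.4, 49.1 and 31.4 CPM in WT against 31.2, 32.1 and 31.6 CPM in Zeb2 cKO hearts. The 5 libraries without WT replicate 2 differed by a coefficient of variation of 4.70%, the smallest of the 9 members, and WT replicate 2 lay 1.56-fold above their median. Its log2 fold change was -0.20 (standard error 0.21, 95% interval -0.70 to 0.30, adjusted p = 0.957) and 0.083 (standard error 0.094) without that library. Adamts5 and its chromosomal neighbour Adamts1 therefore differed in opposite ways in WT replicate 2, with 0.438 CPM of Adamts1 per CPM of Adamts5 there and 0.838 to 1.56 in the other 5 libraries.

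Relative to their means, Adamts15 and Adamts4 varied most among the Zeb2 cKO libraries. Adamts15 was at 22.1, 11.6 and 20.0 CPM in WT against 7.17, 29.1 and 18.4 CPM in Zeb2 cKO hearts, so that Zeb2 cKO held both the lowest and the highest library (log2 fold change 0.025, standard error 0.49, adjusted p = 0.998). Adamts4, an aggrecanase known to be induced by inflammatory cytokines, was the least abundant member, at 2.44, 3.85 and 2.66 CPM in WT against 0.839, 1.68 and 3.72 CPM in Zeb2 cKO hearts. Zeb2 cKO replicates 1 and 2 lay below all WT libraries and Zeb2 cKO replicate 3 above WT replicates 1 and 3 (log2 fold change -0.52, standard error 0.51, 95% interval -1.72 to 0.69, adjusted p = 0.957). The lowest of its counts was 42 in Zeb2 cKO replicate 1 (exact Poisson 95% interval 30.3 to 56.8, which covers counting error only). Among the other members, exons of Adamts7 (144 to 612 counts per library) share 122 bases with those of Tbc1d2b on the opposite strand (547 to 921 counts), so that its level is uncertain without the strand option of the counting, exons of Adamts9 overlap those of 2 other genes with at most 28 counts per library, and 4.35% of the longest Adamts2 transcript lies in stretches nearly identical to other genes, while Adamts1, Adamts5, Adamts10, Adamts12 and Adamts15 had neither.

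Summed over these 5 enzymes, the level was 142, 116 and 126 CPM in WT against 94.3, 141 and 139 CPM in Zeb2 cKO hearts. Versican (Vcan), their main substrate in heart, was at 66.4, 126 and 97.9 CPM in WT against 57.5, 62.5 and 95.9 CPM in Zeb2 cKO hearts. The sum was 0.918 CPM per CPM of Vcan in WT replicate 2 and 1.29 to 2.26 in the other 5 libraries, which held both genotypes (exact permutation test between the genotypes, two-sided p = 0.4). In WT replicate 2, where Vcan was highest, the summed level of the enzymes lay inside the range of the other libraries, with Adamts1, Adamts9 and Adamts15 below and Adamts4 and Adamts5 above their medians there.

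Adamts7 and Adamts12, the enzymes that cleave Comp, differed from each other in WT replicate 2. Adamts7 was at 10.9, 3.28 and 7.34 CPM in WT against 12.2, 12.6 and 9.29 CPM in Zeb2 cKO hearts. Of the 9 members it had the largest positive log2 fold change, 0.66 (standard error 0.40, 95% interval -0.28 to 1.61, adjusted p = 0.957; exact permutation test, two-sided p = 0.2), and WT replicate 1 lay above Zeb2 cKO replicate 3. Without WT replicate 2, the lowest library, it was 0.32 (standard error 0.20). Adamts12 was at 9.45, 14.0 and 8.39 CPM in WT against 8.09, 8.73 and 12.1 CPM in Zeb2 cKO hearts (-0.14, standard error 0.24, adjusted p = 0.957). WT replicate 2 held 0.234 CPM of Adamts7 per CPM of Adamts12, whereas the other 5 libraries held 0.767 to 1.51. Comp itself was at 146 CPM in WT replicate 2 and at 5.06 to 14.1 CPM in the other libraries.

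Adamts10, which binds fibrillin, was at 27.1, 39.9 and 24.5 CPM in WT against 23.2, 24.3 and 29.3 CPM in Zeb2 cKO hearts. Again WT replicate 2 was the highest library and the other WT libraries lay among the Zeb2 cKO ones (log2 fold change -0.25, standard error 0.21, adjusted p = 0.957, and -0.0078 without WT replicate 2). Fibrillin-1 (Fbn1) was at 807 CPM in WT replicate 2 and at 214 to 395 CPM elsewhere. Adamts10 was at 49.4 CPM per 1000 CPM of Fbn1 in that library and at 69.9 to 109 in the other 5.

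**Figure D2:**
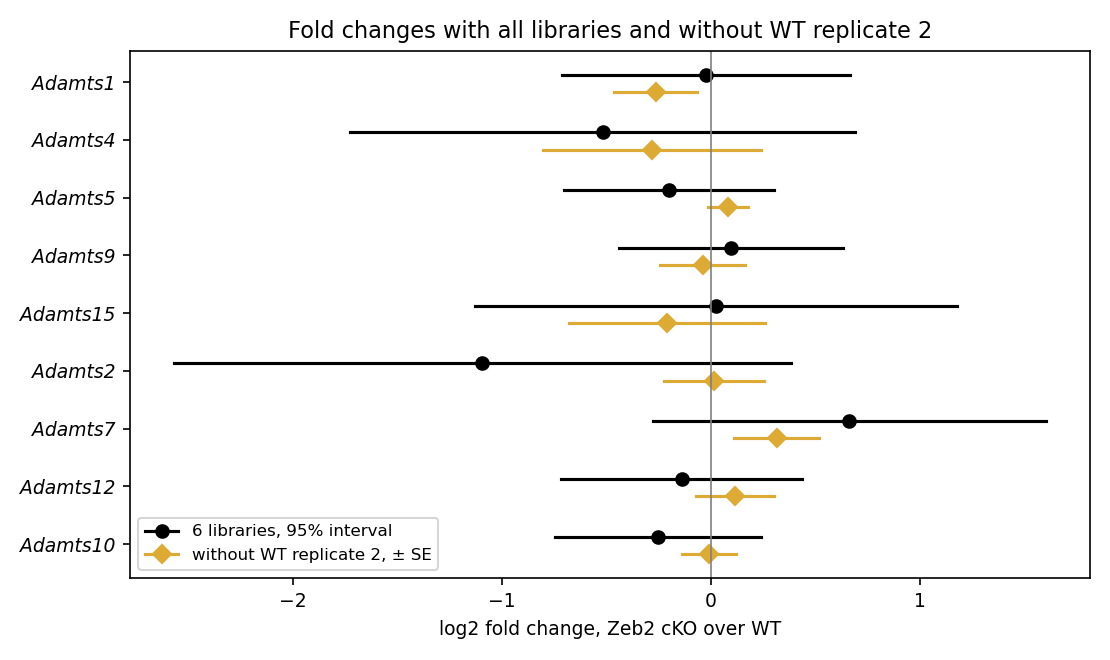
Log2 fold change of each protease between Zeb2 cKO and WT hearts (horizontal axis), with all 6 libraries (black, bars are 95% intervals) and without WT replicate 2 (yellow, bars are ± 1 standard error). Each black interval spans 0, and the values without WT replicate 2 run from -0.28 for Adamts4 to 0.32 for Adamts7.

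Levels between members were compared as CPM per kilobase of annotated exon length, in the order of the mean log2 level over the 6 libraries. Adamts1 (6.35 ± 1.68 CPM per kilobase, SD, n = 6) and Adamts2 (6.99 ± 6.30) led, followed by Adamts10 (3.40 ± 0.753), Adamts5 (3.15 ± 0.696), Adamts9 (2.54 ± 0.511), Adamts15 (1.74 ± 0.752), Adamts7 (1.48 ± 0.562), Adamts12 (0.928 ± 0.219) and Adamts4 (0.526 ± 0.242). The highest mean, that of Adamts2, which includes 19.7 CPM per kilobase in WT replicate 2, was 13.3-fold the lowest, that of Adamts4, and the means lie between the percentiles 22.5 (Adamts4) and 86.1 (Adamts2) of all tested genes. Adamts1 was the highest member in 5 of 6 libraries and Adamts2 in WT replicate 2, whereas Adamts4 was the lowest in 5 of 6 and Adamts7 in WT replicate 2. In 5 of 6 libraries the upper 5 were Adamts1, Adamts2, Adamts10, Adamts5 and Adamts9, and in Zeb2 cKO replicate 1 Adamts7 stood above Adamts9.

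Of the 8 pairs of neighbours in this order, 3 kept their order in every library: Adamts2 above Adamts10 (1.68-fold), Adamts9 above Adamts15 (1.57-fold) and Adamts12 above Adamts4 (1.94-fold), each as the mean ratio within a library. For these an exact sign-flip permutation test over the 6 libraries gave a two-sided p = 0.0313, the smallest it allows, and an adjusted p = 0.0833 over the 8 pairs. The other 5 pairs had an exact p from 0.188 to 0.875 and changed order between libraries. No neighbour pair passed an adjusted p of 0.05, and the test does not cover the error of the gene lengths. With the length of the longest transcript in place of all exons, 2 neighbour pairs kept their order in every library, Adamts1 above Adamts9 and Adamts12 above Adamts4. Adamts2 was then above Adamts10 in only 3 of 6 libraries (1.08-fold, exact p = 0.906) and Adamts10 equalled Adamts1 (1.00-fold, exact p = 1), so the order of the upper 3 rests on the length used. Adamts15, Adamts7, Adamts12 and Adamts4 were again the lowest 4 in the order of the mean log2 level. Adamts5, next above them, exceeded Adamts15 in only 2 of 6 libraries with this length, so the boundary of the lowest 4 rests on the length used as well.

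**Figure D3:**
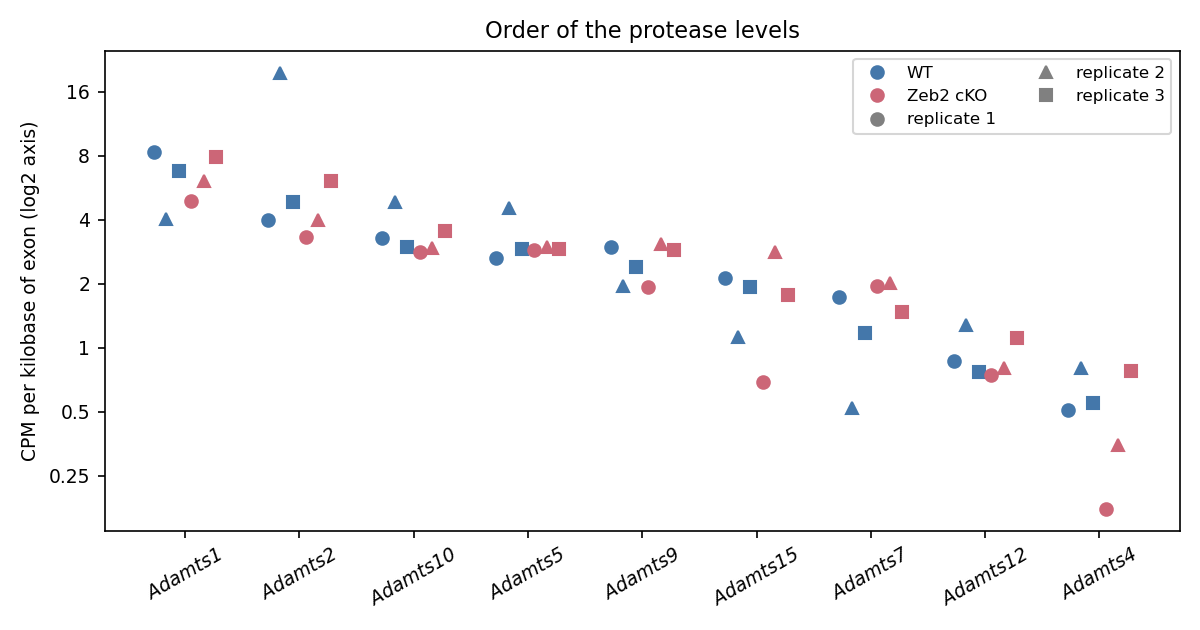
CPM per kilobase of exon (vertical axis, log2 scale) of the 9 proteases in each of the 6 libraries, ordered by mean log2 level, with colour for genotype and symbol for replicate. The genotypes lie among each other for every gene, and the largest departure is Adamts2 in WT replicate 2, at 19.7 CPM per kilobase against 3.33 to 6.06 in the other libraries.

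The composition of the family set WT replicate 2 apart from the other libraries, which hold both genotypes. As a share of the summed CPM per kilobase of the 9 members, Adamts2 made up 50.8% in WT replicate 2 and 15.1% to 21.3% in the other 5 libraries, and Adamts1 10.4% against 24.3% to 31.6%. Adamts7 made up 1.35% against 4.80% to 10.02%, Adamts9 5.05% against 9.89% to 12.2%, and Adamts15 2.88% against 3.56% to 11.2%. Adamts10 and Adamts12 had 12.4% and 3.30% in WT replicate 2, inside the ranges of the other libraries of 11.8% to 14.5% and 3.16% to 3.90%, and so did Adamts4 and Adamts5. The sum itself was 38.8 CPM per kilobase in WT replicate 2 and 19.4 to 28.4 in the other libraries. The part of the cell type markers given above in these differences was not tested.

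The genes most like each member over the 6 libraries were found by Pearson correlation of log2 CPM, a description over 6 points of which WT replicate 2 stands apart. Adamts2 was most like Sparc (r = 0.999), a collagen-binding matrix protein, Nid1 and Igfbp7, and r to Sparc was 0.994 in the 5 libraries without WT replicate 2. Sparc was picked for its r over libraries that include these 5, so the second value is not a separate test. For Adamts10 the likest genes were Fmnl2, Myd88 and Gli2, and for Adamts12 Tcaf2, Col7a1 and Mmp28. Adamts5 was likest to Tmem176b and C3ar1, Adamts1 to Mark2, Rapgef5 and Shank3, and Adamts7 to Top3b. High values were common for some members. The share of all tested genes with r over 0.9 was 12.5% for Adamts2 and ran from 0.441% for Adamts15 to 12.6% for Adamts5. Why this share differed between members was not tested.

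The other genes of the pathway gave 0 calls in either direction as well. Of 10 further ADAMTS proteases 7 passed the filter, of which 3 had log2 fold changes below 0 and 4 above (median 0.11). Adamts3, another procollagen N-proteinase, was at 1.06 ± 0.110 and Adamts6 at 0.954 ± 0.443 CPM per kilobase (SD, n = 6). Adamts3 was at 5.06 CPM in WT replicate 2 and 5.39 to 6.79 CPM elsewhere, so it did not share the high level of Adamts2. Adamts6 was at 14.4 CPM in WT replicate 2 and 5.18 to 6.45 CPM in the other libraries. Adamts13, which cleaves von Willebrand factor and is made mainly in liver, had 0 counts in all 6 libraries.

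Of 7 ADAMTS-like proteins, which lack the protease domain, all were tested, with 5 below 0 and 2 above (median -0.21). Adamtsl2 was at 38.6, 96.5 and 33.0 CPM in WT against 20.2, 29.2 and 40.9 CPM in Zeb2 cKO hearts (log2 fold change -0.90, standard error 0.45, adjusted p = 0.957, and -0.24 without WT replicate 2), and papilin (Papln) was at 4.01 CPM in WT replicate 2 and 9.19 to 18.7 CPM elsewhere. Among the 15 substrates 12 were tested, with 11 below 0 and 1 above and a median of -1.32, which was -0.028 without WT replicate 2, again with 0 calls. Of the 11 inhibitors, receptors and convertases, 9 lay below 0 and 2 above (median -0.51, and -0.10 without WT replicate 2). Timp3 was at 94.8, 247 and 88.5 CPM in WT against 90.8, 92.8 and 93.9 CPM in Zeb2 cKO hearts (log2 fold change -0.63, standard error 0.40, adjusted p = 0.957, and 0.015 without WT replicate 2). Lrp1 was at 672 CPM in WT replicate 2 and 215 to 300 CPM elsewhere. In this group only Sdc4, 1 of 11 genes beside the 2.97% of all tested genes, lay lower in Zeb2 cKO without overlap, at 11.9, 22.6 and 11.3 CPM in WT against 11.01, 11.04 and 9.58 CPM in Zeb2 cKO hearts (log2 fold change -0.54, standard error 0.28, adjusted p = 0.957, and -0.14 without WT replicate 2).

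**Figure D4:**
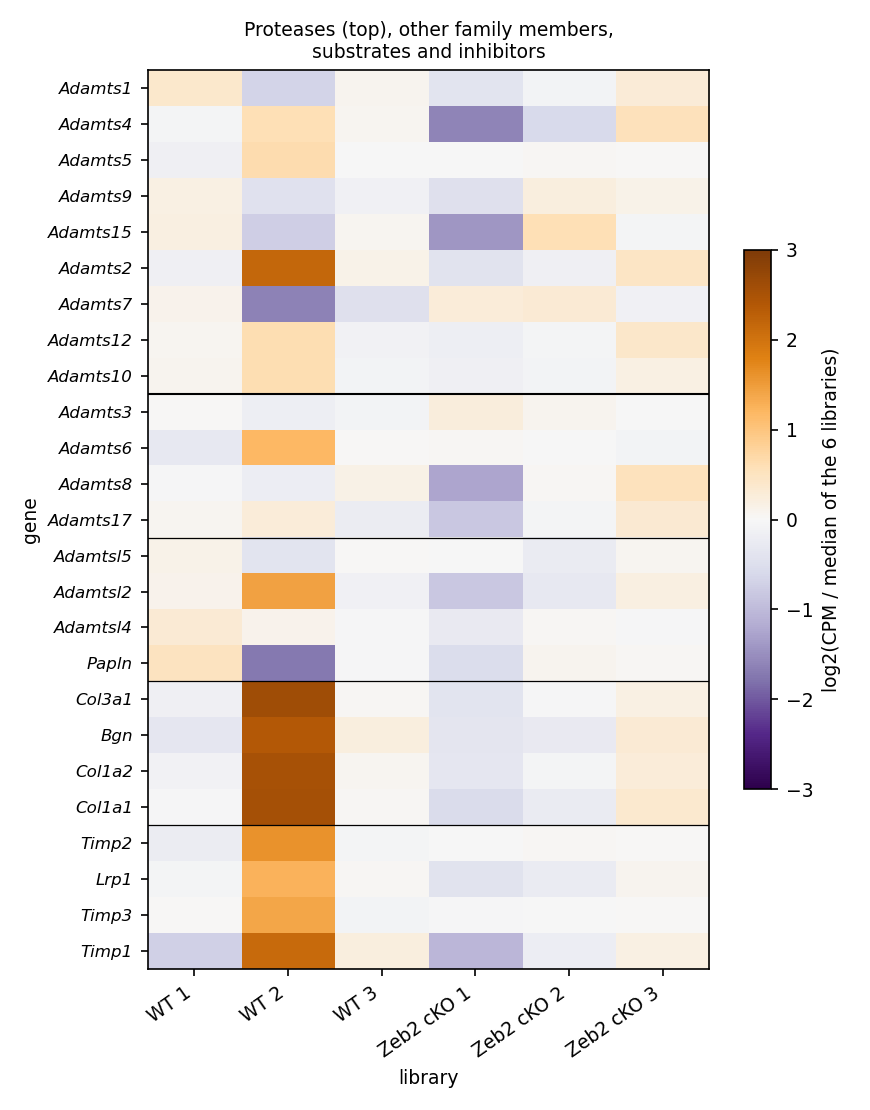
Log2 of CPM over the gene's median of the 6 libraries (colour, orange higher and purple lower) for the 9 proteases and, below the lines, the 4 most abundant genes of each list of other ADAMTS proteases, ADAMTS-like proteins, substrates, and inhibitors and receptor, with 1 column per library. WT replicate 2 is orange for the 4 substrates and the 4 inhibitors and receptor, while among the 9 proteases it is orange for 5 and purple for 4.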

How the data were processed

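Ribosomal RNA was removed from total RNA of heart tissue, and stranded libraries were read from one end over 75 bases. The deposited values are raw counts per gene, which the authors made with the STAR workflow on the Gencode M4 annotation (GRCm38). The strand option and the treatment of reads with several matches are not given in the sources used here.

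Counts were analysed as deposited. In edgeR 4.0.16 (R 4.3.3), genes were kept by filterByExpr (minimum count 10, minimum total count 15), libraries were scaled by TMM, and the genotypes were compared over all 6 libraries with the quasi-likelihood test, with Benjamini-Hochberg adjustment over the 14746 genes tested. Fold changes carry a prior count of 0.125. The standard error is the unshrunk log2 fold change over the square root of the test's F. Single values and ratios were compared with exact permutation tests, and neighbouring levels with exact sign-flip permutations of the ratio within a library. Exon lengths, positions and coding sequences came from Gencode M21 (GRCm38), near-identical stretches (at least 95% over 75 bases) from BLAST 2.17.0. Alternatives were DESeq2 size factors, the DESeq2 1.42.0 Wald test, no filter, a replicate block, library sizes without mitochondrially encoded genes, robust dispersion estimates, and each library left out. The fits were tested on simulated data.

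The 9 members, the gene lists and the markers were chosen with earlier results of these data known. Named genes were the members, Zeb2, the 4 genes of each list with the highest CPM per kilobase and the 3 genes most correlated with each member (log2 CPM, prior count 2), of which examples are given; Vcan, Comp, Fbn1, Sdc4 and Adamts13 were added after their values were seen. Further marker lists (lymphocyte, neutrophil, adipocyte and mesothelial) had summed levels of 4.99, 5.33, 50.6 and 20.5 CPM in WT replicate 2, against 1.34 to 2.51, 1.52 to 3.49, 103 to 125 and 9.11 to 14.9 CPM in the other libraries, so that only the adipocyte list was lowest there. The replicates are separate mice, and the numbers carry no pairing in the labels. An overlap of Adamts4 with another gene and 1 correlated gene are not reported here.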

Additional observations from a re-analysis of the deposited data

How the results depend on the processing

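Under the 6 alternatives that keep all libraries, 0 of 9 members passed an adjusted p of 0.05 and 52 of 54 member fold changes kept their sign. The replicate block turned the log2 fold changes of Adamts1 (0.016) and Adamts15 (-0.13), again with 0 members called. The deviations of same-numbered libraries had r = 0.088, -0.14 and -0.087, and those of differently numbered libraries had r from -0.26 to 0.24. With 3 libraries a group, these values cannot decide whether the numbers pair the mice. With one library left out at a time, 43 of 54 kept their sign and 0 members were called. The log2 fold change then ran from -0.26 to 0.22 for Adamts1, -1.46 to 0.018 for Adamts2, -0.35 to 0.083 for Adamts5, -0.038 to 0.28 for Adamts9, -0.34 to 0.12 for Adamts12 and -0.48 to 0.41 for Adamts15, and turned without WT replicate 2 for Adamts2, Adamts5, Adamts9, Adamts12 and Adamts15, without Zeb2 cKO replicate 2 for Adamts1, Adamts9 and Adamts15, and without WT replicate 1, WT replicate 3 or Zeb2 cKO replicate 1 for Adamts1. The members without overlap between the groups ran from 0 to 3 lower and from 0 to 1 higher, an alternative chosen after seeing the data. Both upper ends were reached without Zeb2 cKO replicate 3, where 10.8% of all tested genes lay lower and 11.8% higher without overlap. Neighbour pairs in the same order in every library ran from 2 to 5, with 5 without WT replicate 2. Genes at an unadjusted p under 0.05 numbered 280 with all libraries, 600 with no filter on low counts and 1134 without WT replicate 1, the highest, against 122 without Zeb2 cKO replicate 1, the lowest. At an adjusted p under 0.05 there were 0 genes in every edgeR setting and 2 with DESeq2. The cause of these shifts was not tested. The lowest count of a member was 42, and with 3 mice a group the intervals of the fold changes leave changes of over 1 log2 unit possible for Adamts2, Adamts4, Adamts7 and Adamts15.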
